A study of Mus musculus with 28 samples.

Results

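Autosomal imprinted genes were examined in WT and Spen KO mouse embryonic stem cells (mESCs) through the peaks called from ChIP-seq. The list of 50 genes was drawn up by name from the known imprinted clusters, and no measured value entered the rule. Of these, 48 were found in the GENCODE vM1 annotation of mm9, among 37252 annotated genes on chromosomes 1 to 19 and X. Kcnq1ot1 was absent from the annotation and was placed by sequence, and Peg13 was not placed. Each gene was examined over its body plus 5 kb on each side, a window with a median width of 33 kb against 15.4 kb for all genes and 25.4 kb for protein-coding genes. Several members share sequence: Zrsr1 lies within Commd1, Mcts2 within H13, Nnat within Blcap and Nap1l5 within Herc3, and the 48 windows merged into 37 separate stretches. Each member was nonetheless counted once by name, so the counts of members below are not counts of independent observations.

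Both groups were HATX mESCs, a line of haploid origin with a mixed genomic background and a doxycycline-inducible Xist transgene, grown with serum and LIF on gelatin. The WT group carried intact Spen and the Spen KO group a full deletion of Spen, and no doxycycline was named in the labels of these samples. Of the 28 samples, 12 were inputs and 16 were ChIP libraries, in pairs for every genotype and antibody (H3K9me3, H3K4me3, H3K27Ac and Oct4). The Spen KO group was 1 clone (clone 2), so that loss of Spen and other differences between this clone and WT cells cannot be told apart. A genome of haploid origin comes from a single parent, and which parent was not given in the sources used here. The marks below are therefore not read as a maternal copy beside a paternal copy, and the lists could not separate such copies.

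An imprinted gene is transcribed from only the maternal or only the paternal copy. The choice is set by an imprinting control region, a CpG-rich stretch that receives DNA methylation in the egg or in the sperm and keeps it on that copy after fertilization. On the methylated copy the zinc finger protein ZFP57 binds the methylated hexamer TGCCGC, and its partners TRIM28 and SETDB1 deposit H3K9me3, a mark of silent chromatin. The unmethylated copy usually carries H3K4me3, a mark of CpG-rich promoters, and H3K27Ac where promoters or enhancers are active. Oct4 is a transcription factor of the pluripotent state. Spen is an RNA-binding repressor that is required for silencing by Xist.

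Sequences are shown because the hexamer is the feature that the control regions share. All 17 control windows of 2001 bp, those placed around a start, held TGCCGC on at least 1 strand, with a median of 5 copies. The same word was present in 36.1% of 33867 windows of this width around annotated gene starts, and in 64.9% of 12504 such windows with a CpG-rich start, with a median of 1 copy in the CpG-rich windows. The stretches below are the 150 bases outside annotated exons with the most copies in each of 8 control regions with 6 or more copies, read from mm9 along the strand given. Counts were not scaled to width. The Dlk1-Meg3 IG-DMR held 10 copies in 6001 bp and Rasgrf1 10 in 15001 bp, so their counts do not compare with those of the 2001 bp windows. Capitals mark TGCCGC and its reverse complement GCGGCA. In Nnat, which also had 6 copies, they lay outside the stretches without exons, and that region is not printed.
Mest, chr6:30688350-30688499, plus strand: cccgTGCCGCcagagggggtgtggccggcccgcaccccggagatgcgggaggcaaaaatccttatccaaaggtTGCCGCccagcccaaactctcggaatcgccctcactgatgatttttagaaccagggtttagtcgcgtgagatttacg
Snrpn, chr7:67149631-67149780, minus strand: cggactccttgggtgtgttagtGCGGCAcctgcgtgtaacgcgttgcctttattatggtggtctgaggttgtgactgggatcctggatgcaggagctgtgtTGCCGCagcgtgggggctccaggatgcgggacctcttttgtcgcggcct
Airn, chr17:12934591-12934740, plus strand: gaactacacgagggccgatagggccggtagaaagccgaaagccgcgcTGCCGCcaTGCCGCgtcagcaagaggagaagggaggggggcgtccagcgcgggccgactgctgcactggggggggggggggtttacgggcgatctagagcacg
Peg3, chr7:6682768-6682917, minus strand: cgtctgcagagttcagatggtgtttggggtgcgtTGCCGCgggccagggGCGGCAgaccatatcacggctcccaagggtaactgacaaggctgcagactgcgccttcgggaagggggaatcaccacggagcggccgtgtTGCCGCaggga
Plagl1, chr10:12810846-12810995, plus strand: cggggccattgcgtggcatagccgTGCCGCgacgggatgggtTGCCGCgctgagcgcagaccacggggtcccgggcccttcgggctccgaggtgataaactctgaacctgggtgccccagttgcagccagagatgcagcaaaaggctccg
Inpp5f, chr7:135831414-135831563, plus strand: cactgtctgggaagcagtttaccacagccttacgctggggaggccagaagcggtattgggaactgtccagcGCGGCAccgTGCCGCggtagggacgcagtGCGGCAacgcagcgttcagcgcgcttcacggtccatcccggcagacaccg
Dlk1-Meg3 IG-DMR, chr12:110766506-110766655, plus strand: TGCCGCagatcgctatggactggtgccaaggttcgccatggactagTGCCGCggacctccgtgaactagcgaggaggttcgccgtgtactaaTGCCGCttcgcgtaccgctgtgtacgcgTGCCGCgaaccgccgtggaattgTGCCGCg
Rasgrf1, chr9:89774594-89774743, plus strand: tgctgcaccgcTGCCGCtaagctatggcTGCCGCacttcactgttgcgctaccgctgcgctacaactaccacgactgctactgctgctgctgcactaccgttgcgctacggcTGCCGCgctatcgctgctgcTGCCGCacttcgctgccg
The stretches for Mcts2 and Zrsr1 were added after their peaks had been seen, because H3K9me3 at these regions differed between the genotypes. The Zrsr1 stretch lies just before the RefSeq start of the gene, outside the 2001 bp control window (chr11:22872215-22874215), which holds 2 copies of the hexamer. The stretch itself holds none.
Mcts2, chr2:152512572-152512721, plus strand: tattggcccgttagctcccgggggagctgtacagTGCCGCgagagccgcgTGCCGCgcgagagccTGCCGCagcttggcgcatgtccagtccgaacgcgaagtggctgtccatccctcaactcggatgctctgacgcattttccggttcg
Zrsr1, chr11:22871834-22871983, plus strand: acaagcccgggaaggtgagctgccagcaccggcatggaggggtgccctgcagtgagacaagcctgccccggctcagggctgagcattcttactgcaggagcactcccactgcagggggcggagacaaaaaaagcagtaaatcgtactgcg
The control region of H19 is known for its binding sites of CTCF, the insulator protein that separates Igf2 from enhancers beyond H19. Searching both strands for the CTCF core motif found 4 matches, all on the minus strand, the strand of H19, between 2166 and 3891 bp upstream of its annotated start. The core was present in 0.337% of 33867 windows of 2501 bp around gene starts, and 0 of them held 4 or more. Capitals mark the core.
H19 control region, chr7:149766201-149766240, minus strand: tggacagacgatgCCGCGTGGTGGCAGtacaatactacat
H19 control region, chr7:149766656-149766695, minus strand: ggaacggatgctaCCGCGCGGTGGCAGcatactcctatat
H19 control region, chr7:149767682-149767721, minus strand: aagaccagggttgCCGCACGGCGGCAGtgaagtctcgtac
H19 control region, chr7:149767926-149767965, minus strand: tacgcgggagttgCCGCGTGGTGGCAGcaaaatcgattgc

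The lists were checked against markers of the cell type. Of 8 embryonic stem cell genes (Pou5f1, Nanog, Sox2 and others), 8 had H3K27Ac and 8 had H3K4me3 at a start in each genotype. Of 14 markers of endoderm, mesoderm, trophoblast, neural cells and fibroblasts with an annotated start (Sox1 had none), 0 had H3K27Ac in either genotype, while 14 in WT and 13 in Spen KO had H3K4me3. For H3K27Ac and H3K4me3 the lists held peaks that passed between 2 libraries, 13922 and 11932 for H3K27Ac and 34823 and 31091 for H3K4me3 in WT and Spen KO. Library scores correlated across the peaks of a list with Spearman coefficients of 0.635 to 0.83, over peaks that had been chosen for agreement. H3K9me3 had 53745 domains over 394 Mb in WT and 70268 shorter domains over 371 Mb in Spen KO. The 4 Oct4 lists held 1806 and 4111 peaks in WT and 2617 and 3028 in Spen KO. Read totals were not part of the lists, so the depth behind each peak is unknown, and a region without a peak is one that did not pass the authors' threshold.

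Among imprinted loci the genotypes differed most plainly at control regions. The 20 regions were windows placed from annotation and sequence, for most of them 1000 bp on each side of a CpG-rich start. By rule, 16 were grouped as methylated on the maternal and 4 on the paternal copy. That grouping does not hold well for 2 of them. The Nespas window fell at the Nesp promoter and not at the upstream Nespas start, and the limit for Zdbf2 is given below. Scores are given per library where the list has them, and as a percentile of all peaks of the same list. In WT cells 14 of 20 control regions carried an H3K9me3 domain. In Spen KO cells 9 of these had it, 5 did not, and 0 had gained it. The 5 regions were those of Zrsr1, Nnat, Mcts2, Grb10 and Inpp5f, and in each of them the WT domain covered 100% of the window and the Spen KO list covered 0%. At 4 of the 5, Zrsr1, Nnat, Grb10 and Inpp5f, an H3K4me3 peak was present in Spen KO and absent in WT. At the remaining region, Mcts2, H3K4me3 covered 25.6% of the window in WT and 88% in Spen KO. No region showed the opposite exchange. There is 1 list per genotype for each histone mark, and both libraries behind it are technical replicates, so that none of these differences could be tested against the spread between cultures.

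**Figure D1:**
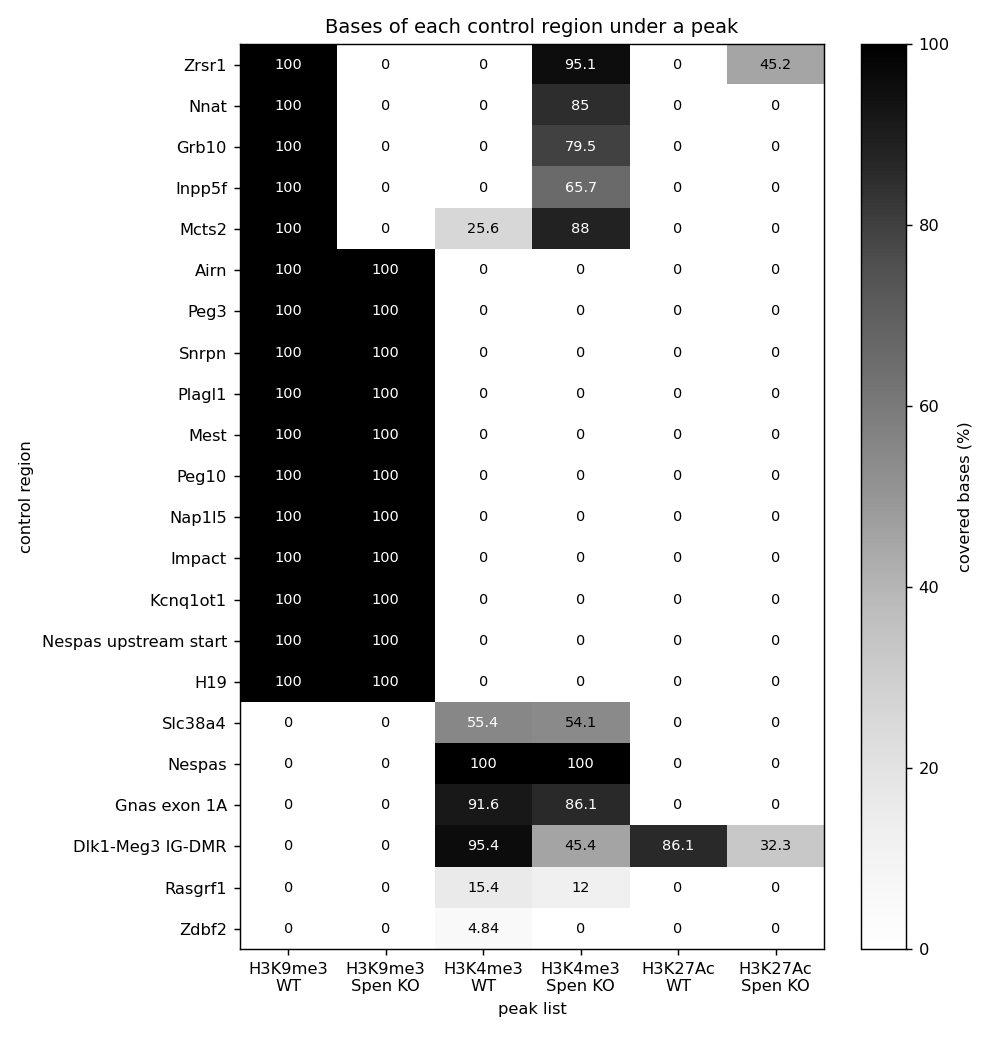
Percentage of bases of each control region (rows) under a peak of H3K9me3, H3K4me3 or H3K27Ac in the WT and the Spen KO list (columns), in grey from 0 to 100 with the value printed. The top 5 rows are at 100 for H3K9me3 in WT and 0 in Spen KO, and at 65.7 to 95.1 for H3K4me3 in Spen KO, whereas the next 11 rows are at 100 for H3K9me3 in both genotypes.

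Zrsr1, a paternally expressed retrogene for a U2AF-related splicing factor, showed the exchange and also differed between the lists in H3K27Ac. In WT an H3K9me3 domain spanned chr11:22865601-22878600 (13 kb) with a score at percentile 90 of its list. In Spen KO the nearest domain was 61 kb away. H3K4me3 was absent from the window in WT and formed a peak at chr11:22870898-22873133 in Spen KO with library scores of 65.3 and 41.7 (percentile 96.7), followed by a weaker one at chr11:22873233-22875184 with scores of 32.4 and 9.95. H3K27Ac was also absent in WT, where its nearest peak was 23 kb away. In Spen KO it formed a peak at chr11:22871921-22873119 with library scores of 32.9 and 35.8 (percentile 87.7). Every peak listed for these marks had passed between both libraries, so a score from each is a property of the lists and not added support. All of these peaks lie within Commd1, and the stretch printed above for Zrsr1 lies under the first H3K4me3 peak.

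Nnat encodes neuronatin, a small membrane protein, and lies in an intron of Blcap. The WT domain of H3K9me3 spanned chr2:157379601-157391000 (11.4 kb, percentile 85.5), and the nearest domain in Spen KO was 14.4 kb from the window. H3K4me3 in Spen KO lay at chr2:157384807-157386514, over the annotated start, with library scores of 40 and 33 (percentile 79.7). In WT the nearest H3K4me3 peak was 1.85 kb from the window, over an exon of Blcap, where H3K4me3 was present in both genotypes. H3K27Ac was absent from the control window in both.

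Mcts2 is a retrogene within H13, a signal peptide peptidase gene. Its WT H3K9me3 domain was at chr2:152506401-152516400 (10 kb, percentile 81), and the nearest domain in Spen KO was 38.7 kb away. A short H3K4me3 peak of 512 bp was already present in WT at chr2:152513266-152513777, with library scores of 10.3 and 7.84 (percentile 2.92). In Spen KO the peak at this place was 2127 bp long, at chr2:152512807-152514933, with scores of 37.8 and 39.2 (percentile 82.7), and a weaker one lay at chr2:152511576-152512566. When only the stronger 50% of every list was kept, or lists were cut to equal length, the short WT peak dropped out and Mcts2 became the fifth region with the exchange.

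Grb10, an adaptor protein that restrains growth factor signalling, had the widest WT domain of the 5, at chr11:11905001-11933600 (28.6 kb, percentile 64.4). In Spen KO a part of it remained within the gene, 13.5 kb from the control window. The H3K4me3 peak seen only in Spen KO was at chr11:11925344-11926934 with library scores of 27.5 and 20.6 (percentile 54.2). Inpp5f encodes an inositol phosphatase, and its control region lies at an internal start of a shorter, paternally expressed transcript. The WT domain there was at chr7:135826401-135835200 (8.8 kb, percentile 92.5), with none in Spen KO within 63.2 kb. The H3K4me3 peak in Spen KO was at chr7:135831160-135832473 with scores of 56.3 and 23.9 (percentile 85.1), and the stretch printed above for Inpp5f lies within it. H3K9me3 at the other end of the same gene was present in both genotypes, in a domain of 12.6 kb (percentile 93.4) in WT and 12 kb (percentile 93.2) in Spen KO.

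The other 9 regions with H3K9me3 in WT had it in Spen KO over 100% of the window, with no H3K4me3 and no H3K27Ac in either list. At Peg10, a gene derived from a retrotransposon, the domain was 5 kb long in WT and 5.2 kb in Spen KO (percentiles 96.9 and 88.1). At Mest, which encodes a hydrolase-like protein, the lengths were 12.8 and 14 kb (percentiles 94.2 and 89.7). At Peg3, a zinc finger gene, it was 22.2 and 23.2 kb (percentiles 89 and 84.9). These 3 domains were at least as long in Spen KO as in WT.

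The domains of the other 6 regions were shorter in Spen KO. At Snrpn, the splicing factor gene at the centre of the Prader-Willi cluster, the domain was 21 kb in WT and 12.8 kb in Spen KO (percentiles 92.2 and 84.3). The start of Airn, the noncoding RNA that silences Igf2r in cis, had 18.8 and 17.4 kb (percentiles 69.4 and 82.9). Nap1l5, a retrogene within Herc3, had 22.2 and 13.8 kb (percentiles 75 and 87.3). At Plagl1, a zinc finger transcription factor gene, the domain was 11.2 and 10 kb (percentiles 80 and 92.3), and at Impact, a regulator of translation, 14.2 and 11.8 kb (percentiles 83.2 and 85.7). H19 was the only paternally methylated region with H3K9me3, in a domain of 32.2 kb in WT and 20.8 kb in Spen KO (percentiles 50.7 and 60.3) that included the 4 CTCF core matches printed above.

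Both windows that were added later behaved like these 9. At the Kcnq1ot1 start, in an intron of Kcnq1, the domain was 14 kb in WT and 13 kb in Spen KO. The upstream start of Nespas, an antisense RNA of the Gnas cluster, had 15.8 and 14.8 kb (percentiles 93 and 95.9). With them, 11 control regions kept H3K9me3 and 5 did not.

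**Figure D2:**
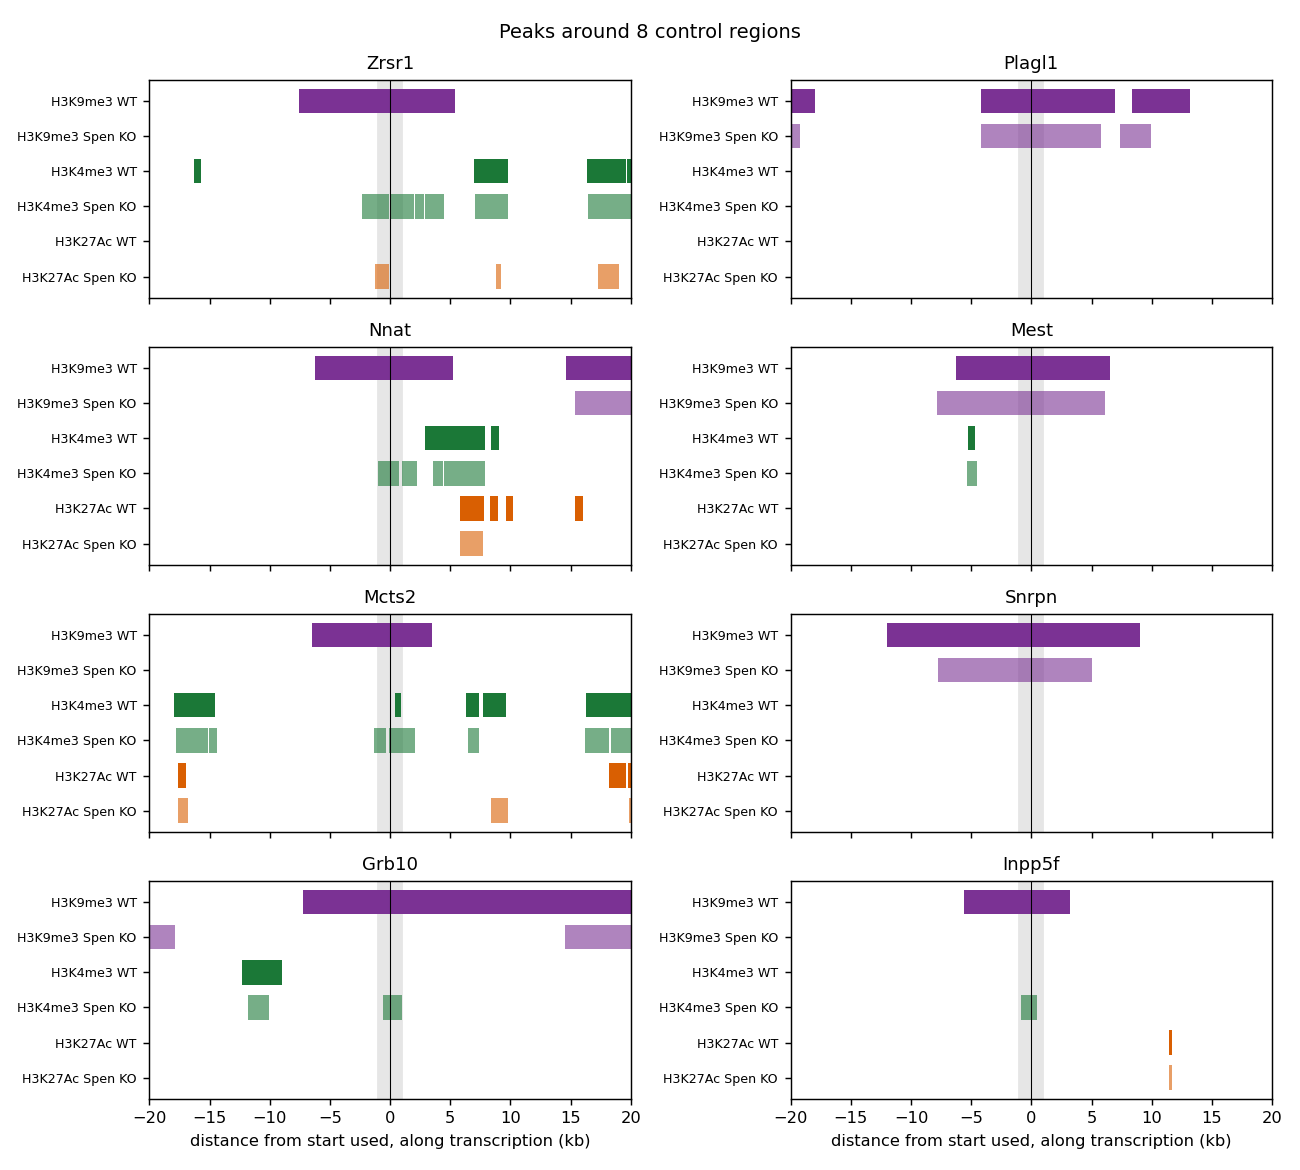
Peaks of H3K9me3, H3K4me3 and H3K27Ac (rows of each panel, WT solid and Spen KO pale) within 20 kb of the start used for 8 control regions, drawn along the direction of transcription, with the control window shaded. At Zrsr1, Nnat, Mcts2, Grb10 and Inpp5f the WT H3K9me3 bar crosses the shaded window and the Spen KO row shows H3K4me3 there, whereas at Plagl1, Mest and Snrpn H3K9me3 crosses it in both genotypes.

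The remaining 6 control regions had no H3K9me3 in either genotype. Slc38a4, an amino acid transporter gene, had H3K4me3 over 55.4% of the window in WT and 54.1% in Spen KO. The Nespas window chosen by CpG count, which lies at the Nesp promoter, had H3K4me3 over 100% of its bases in both, and Gnas exon 1A over 91.6% and 86.1%. The Rasgrf1 region had it over 15.4% and 12%, and the stretch printed above lies within that peak in both genotypes. The region upstream of Zdbf2 had a short H3K4me3 peak of 726 bp in WT alone (library scores 7.95 and 17.5, percentile 18.1). This window was grouped with the paternally methylated regions, although its methylation is known to arise after fertilization.

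The Dlk1-Meg3 IG-DMR, the intergenic region that controls the Dlk1, Meg3 and Dio3 cluster, was the only control region with H3K27Ac in both lists. H3K27Ac covered 86.1% of its 6001 bp in WT and 32.3% in Spen KO. H3K4me3 covered 95.4% and 45.4%. The strongest H3K27Ac peak there had library scores of 19 and 24 (percentile 75.5) in WT and of 15.4 and 17.2 (percentile 37) in Spen KO. The printed stretch of this region, with 5 hexamers in 150 bases, lay under H3K27Ac and H3K4me3 in both genotypes.

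The exchange at control regions was set beside all CpG-rich starts, those with a ratio of observed to expected CpG above 0.6. H3K9me3 was called in 1.81% of 30071 such starts in WT and in 1.2% in Spen KO, in WT alone in 0.772% and in Spen KO alone in 0.16%. H3K4me3 was called in 98.9% and 98.6%, in WT alone in 0.502% and in Spen KO alone in 0.246%. H3K27Ac was called in 36.3% and 40.2%, in WT alone in 4.03% and in Spen KO alone in 7.88%. Among the 20 control regions H3K27Ac was in Spen KO alone at 1, Zrsr1, which was not a larger share. Loss of H3K9me3 was common where a CpG-rich start had it, at 42.6% of 544 starts, so the 5 of 14 control regions without it in Spen KO were not a larger share. Most of those 544 starts carried H3K4me3 as well in WT. Among the 118 CpG-rich starts with H3K9me3 and no H3K4me3 in WT, 22% had no H3K9me3 in Spen KO and 16.1% showed the full exchange, against 4 of 13 control regions with these marks. Without the starts of the members, 81 starts of 66 genes remained, of which 9 (11.1%) had lost H3K9me3 and 2 (2.47%) showed the exchange.

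Over all CpG-rich starts the exchange was seen at 0.0632%, that is 19 starts of 8 genes in 6 loci. Of these loci, 4 were those of Grb10, Commd1 with Zrsr1, Blcap with Nnat, and Inpp5f. The fifth was Gm11607, within an intron of Gpr1 beside Zdbf2, and it was singled out after its values were seen. That intron is known to hold a promoter that is methylated in oocytes and drives a long transcript toward Zdbf2. At Gm11607 the WT list had an H3K9me3 domain at chr1:63241401-63251200 (9.8 kb, percentile 81.3), and the Spen KO lists had H3K4me3 at chr1:63246346-63248050 with library scores of 38.6 and 22 (percentile 68.2) and H3K27Ac at chr1:63245772-63248043 with scores of 35.6 and 19 (percentile 77). The last locus was Wdr63, where the WT domain was at percentile 1.94 and the Spen KO H3K4me3 peak at percentile 6.17. The opposite exchange was seen at 0.0133% of CpG-rich starts, in 2 loci without a member.

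The control regions that showed the exchange and those that kept H3K9me3 overlapped in the sequence features counted. The ratio of observed to expected CpG was 0.75 to 0.89 in the 4 regions with the exchange and 0.42 to 0.8 in the 10 maternally methylated regions with H3K9me3 in both genotypes, with medians of 0.78 and 0.585, and among the latter only Plagl1 and Peg10 lay within the range of the former. The hexamer count was 2 to 6 in the former and 2 to 12 in the latter. Their WT H3K9me3 scores also overlapped, at percentiles 64.4 to 92.5 and 69.4 to 96.9. The groups were defined by the peaks, so these ranges are given as a description. Grb10 and Inpp5f were placed only at starts with a CpG ratio above 0.6, a floor that the other regions did not have. Whether this floor contributes to the higher CpG ratio of the exchange group was not tested. The ratio was 0.89 at Grb10 and 0.76 at Inpp5f, and 0.75 at Zrsr1 and 0.8 at Nnat, which were placed without the floor. Mcts2, which lost H3K9me3 but is in neither group, had a ratio of 0.7.

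Across the gene windows, H3K9me3 was present at 32 of the 48 imprinted genes in WT and at 26 in Spen KO. The background was 36.4% of all genes in WT and 37% in Spen KO, or 38.4% and 38.3% of protein-coding genes. There were 6 members with H3K9me3 in WT alone, against 4.13% of all genes, and 0 in Spen KO alone, against 4.76%. Of the 6, Zrsr1, Nnat, Mcts2 and its host H13 shared the control region domains described above, with 10.4, 10.2, 8.52 and 10 kb covered in WT and none in Spen KO. Dio3, which inactivates thyroid hormone, had 1.52 kb under a weak domain in WT (percentile 0.715). In Slc38a4 only 147 bp at the window's edge lay under an intergenic WT domain of 18.2 kb. Counting overlapping windows once left 3 stretches with H3K9me3 in WT alone.

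**Figure D3:**
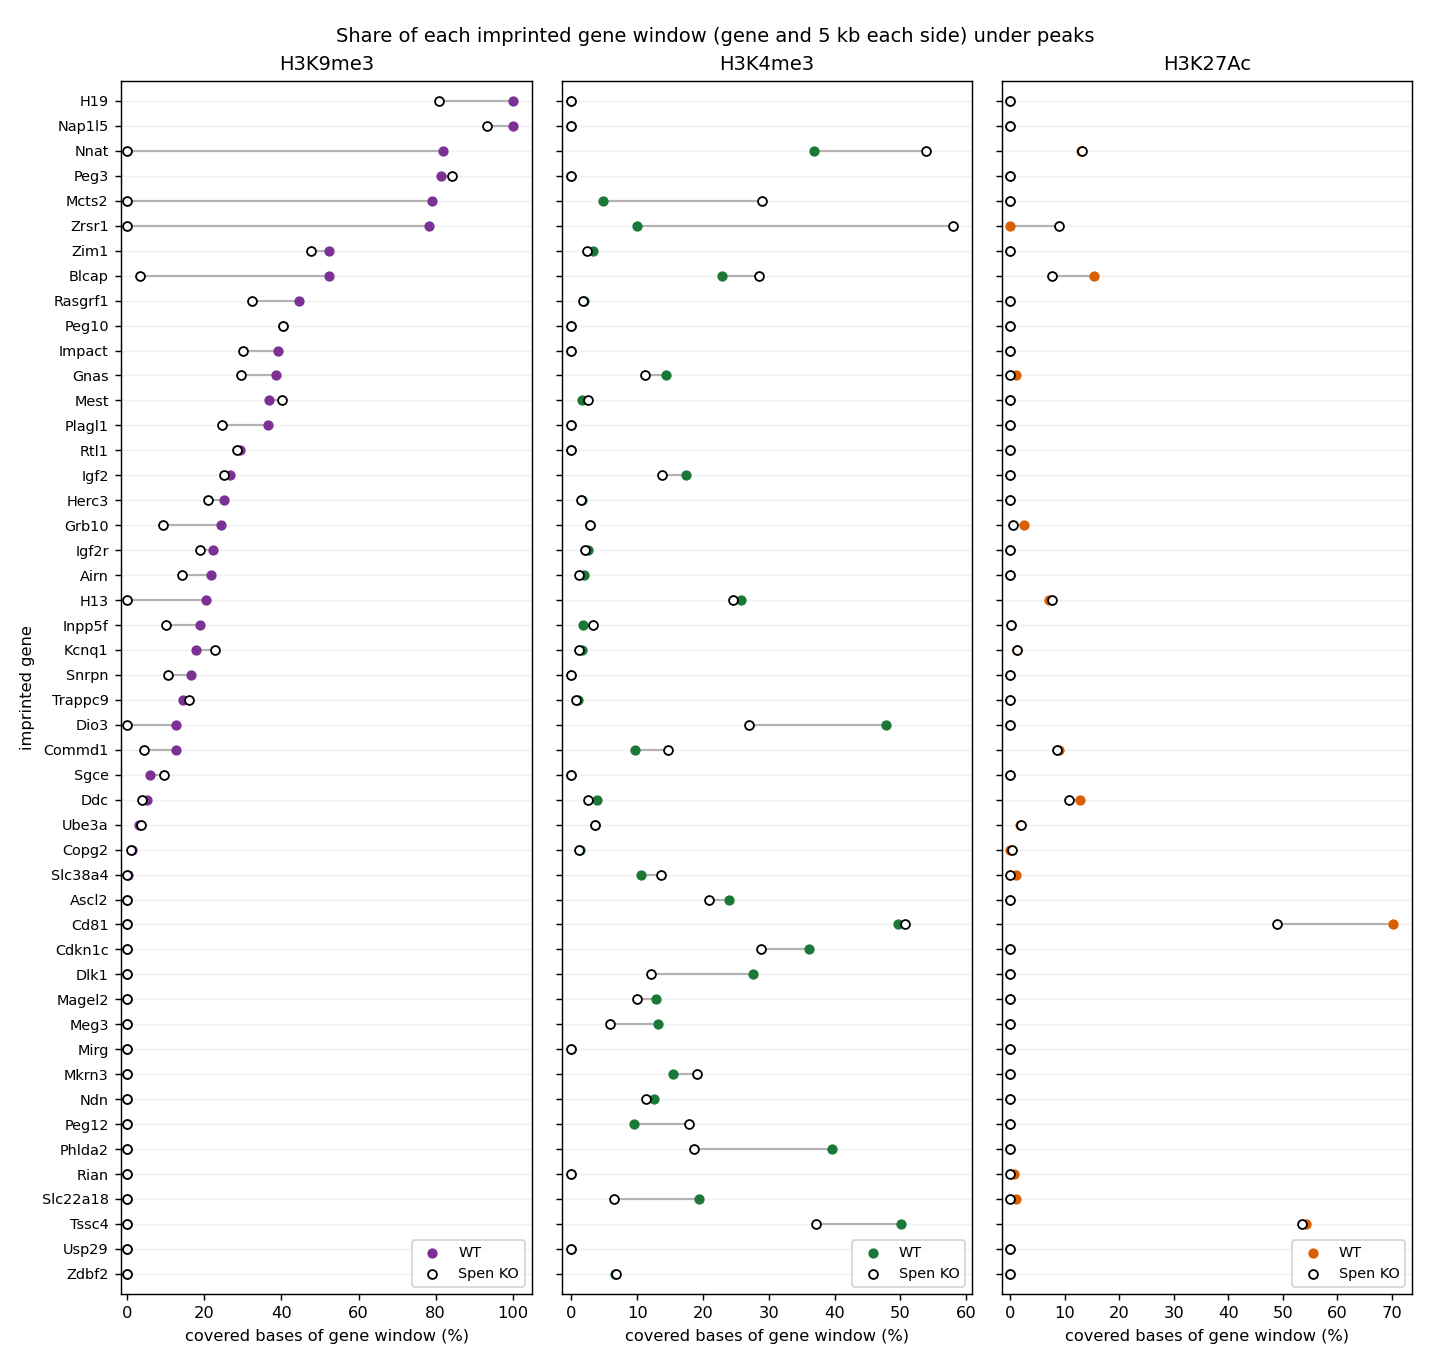
Percentage of each of 48 imprinted gene windows (rows, ordered by H3K9me3 in WT) under peaks of H3K9me3, H3K4me3 and H3K27Ac (panels), with WT as filled and Spen KO as open circles. Nnat, Mcts2 and Zrsr1 are at 0 for H3K9me3 in Spen KO and higher in Spen KO than in WT for H3K4me3, and Cd81 has the largest H3K27Ac share in WT.

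Among the 26 members with H3K9me3 in both lists, 19 had fewer covered bases in Spen KO and 6 had more. That was 73.1% with fewer, against 60% of the 12005 genes called in both. The median log2 ratio of covered bases was -0.29 for the members and -0.14 for all genes. Genes that house a changed control region were among those with fewer. Blcap had 13 kb covered in WT and 0.81 kb in Spen KO, Commd1 19.8 and 6.8 kb, Grb10 28.6 and 11 kb, and Inpp5f 18 and 9.56 kb. In all, 9 of the 32 members with H3K9me3 in WT had at most 50% of those bases covered in Spen KO. That was a share of 28.1% against 22.4% of all genes. The 9 include Zrsr1 with Commd1, Nnat with Blcap, and Mcts2 with H13, pairs that share a domain and were counted singly. Among all genes with H3K9me3 in WT, 11.4% had it in WT alone, against 6 of the 32 members. Kcnq1, a potassium channel gene, and Trappc9 had more in Spen KO, with 58.8 and 75 kb for Kcnq1 and 69.8 and 77.4 kb for Trappc9.

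H3K9me3 was called at 36.4% of all genes in WT and 37% in Spen KO, so most genes lacked it in each list. Among the members, no H3K9me3 was found in either genotype at 16 (33.3%). They included Ndn, Magel2, Mkrn3 and Peg12 of the Prader-Willi cluster, Cdkn1c, Phlda2, Slc22a18, Ascl2, Tssc4 and Cd81 of the Kcnq1 cluster, and Dlk1, Meg3, Rian and Mirg of the Dlk1-Meg3 cluster. Rtl1, a retrotransposon-like gene of the last cluster, was an exception with 6.2 kb in WT and 6 kb in Spen KO. Usp29 and Zdbf2 were the other two without the mark. At the other end, H19 and Nap1l5 windows lay under H3K9me3 over 100% of their bases in WT, and over 81% and 93.3% in Spen KO.

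H3K4me3 was present at 36 members in both genotypes, against 54.6% of all genes in WT and 53% in Spen KO, and 71.9% and 70.6% of protein-coding genes. There were 0 members with the mark in 1 genotype alone, where the background was 2.4% for WT alone and 0.781% for Spen KO alone. The 12 members without it were H19, Peg3, Usp29, Snrpn, Rian, Mirg, Rtl1, Plagl1, Peg10, Sgce, Nap1l5 and Impact. Peg3, Snrpn, Plagl1, Peg10, Nap1l5 and Impact thus lacked it at their own control regions as well as over the gene. The highest H3K4me3 scores in WT belonged to Gnas (library scores 71.6 and 58.2), the ubiquitin ligase gene Ube3a (54 and 69.5), Trappc9 (76.2 and 46.7), the tetraspanin gene Cd81 (41.3 and 74.4) and H13 (79.9 and 24.2). In Spen KO the peaks at the same places scored 45.9 and 25 for Gnas, 74.2 and 33.9 for Ube3a, 79.2 and 32.6 for Trappc9, 74.2 and 38.2 for Cd81 and 60.7 and 42.3 for H13.

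The extent of H3K4me3 moved in both directions. Of the 36 members, 24 had fewer covered bases in Spen KO and 12 had more. The share with fewer was 66.7%, against 86.9% of the 19446 genes called in both lists, and the median log2 ratio was -0.20 against -0.32. The 12 with more were Zrsr1, Mcts2, Peg12, Inpp5f, Commd1, Mest, Nnat, Slc38a4, Blcap, Mkrn3, Cd81 and Zdbf2. Of these, Zrsr1 shares peaks with Commd1, and Nnat with Blcap. Zrsr1 went from 1.32 kb to 7.71 kb and Mcts2 from 0.512 kb to 3.12 kb. In these 2 members the covered bases in Spen KO were at least 2 times those in WT, as in 0.59% of all genes with the mark in WT. Nnat went from 4.59 to 6.7 kb, Inpp5f from 1.74 to 3.1 kb and Commd1 from 15.3 to 23.1 kb. Peg12, which encodes a Frat family protein, went from 1.21 to 2.26 kb, and the neighbouring Mkrn3 from 1.94 to 2.4 kb.

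Narrower H3K4me3 in Spen KO was seen in the Dlk1-Meg3 and Kcnq1 clusters. Dlk1, a Notch-like membrane protein gene, had 5.66 kb in WT and 2.48 kb in Spen KO. The noncoding RNA gene Meg3 had 5.34 and 2.38 kb, and Dio3 5.75 and 3.24 kb. Phlda2, a regulator of placental growth, had 4.35 and 2.05 kb, and the neighbouring transporter gene Slc22a18 had 6.89 and 2.31 kb. At Igf2r, the receptor that clears IGF2, the promoter peak was 2.48 kb long in WT (library scores 50.9 and 45.1) and 1.43 kb in Spen KO (37.2 and 29.4). Because the whole Spen KO list covered 50.3 Mb against 64.5 Mb in WT, these changes lay in the direction of most genes.

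H3K27Ac was found at fewer members than the other marks, 15 in WT and 13 in Spen KO, with backgrounds of 21.4% and 21.2% of all genes and 28.3% and 28.4% of protein-coding genes. It was in both lists at 11 members. The WT list alone had it at Slc22a18, Rian, Gnas and Slc38a4, against 3.9% of all genes, and the Spen KO list alone at Zrsr1 and Copg2, against 3.66%. At Gnas, the gene for the stimulatory G protein alpha subunit, the WT peak was 0.847 kb long (library scores 19.1 and 13.4, percentile 51.4). At Slc38a4 it was 0.807 kb long (23.7 and 15.5, percentile 69.1). The WT peaks in introns of Slc22a18 (7.36 and 6.5, percentile 0.783) and of Rian (9.34 and 9.29, percentile 5.04) were among the weakest of the list. The Copg2 peak in Spen KO, at an exon of this coat protein gene, scored 13.2 and 13.7 (percentile 14.5). The peak at Zrsr1 was thus the strongest of the 6 by percentile.

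The highest H3K27Ac scores in WT were at members that carried it in both genotypes. Ddc, the dopa decarboxylase gene beside Grb10, had a peak with library scores of 43 and 33.3 in WT and of 47.2 and 25.7 in Spen KO. The strongest peak in the Commd1 window, which lies beyond the gene's end, scored 44.4 and 30.6 (WT) against 28.9 and 39.6 (Spen KO). An intronic peak of Kcnq1 scored 32.4 and 30.8 (WT) against 20.2 and 34.4 (Spen KO). A peak over a Blcap exon, which also falls in the Nnat window, scored 31.1 and 20.2 (WT) against 22.6 and 19.7 (Spen KO). The percentile was lower in the Spen KO list in each of these peaks. It was 96.5 against 89.9 at Ddc, 96.1 against 87.5 at Commd1, 92.4 against 77.1 at Kcnq1 and 84.8 against 60.3 at Blcap. The peaks were chosen for high WT scores, so a lower rank in the other list can follow from that choice. Among members not chosen this way, the highest percentile rose from 66.6 to 84.6 at Inpp5f, in a peak beyond the gene's end. It also rose at Grb10 (35.8 to 55) and at Tssc4 (45.1 to 56.7), which shares peaks with Cd81. It fell at Ube3a (78.4 to 59.4), Cd81 (81.3 to 57.4) and H13 (63.6 to 55.6). Cd81 had the widest coverage in WT, 17.7 kb against 12.3 kb in Spen KO, where Commd1 had 13.6 kb.

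Oct4 had 1 list per library, so replicates could be set side by side. Peaks were found at 10 and 22 members in the 2 WT libraries and at 5 and 10 in the 2 Spen KO libraries. The background was 6.25% and 7.15% of all genes in WT and 5.1% and 5.46% in Spen KO. The mean was 16 ± 8.49 members in WT and 7.5 ± 3.54 in Spen KO (SD, n = 2 libraries). The counts of the first WT and the second Spen KO library were equal at 10. Because the ChIP-seq methods name technical replicates, this SD is a spread between libraries and may not hold the spread between cultures. The second WT library had the longest list, with 4111 peaks. In lists cut to equal length the counts were 10 and 13 (WT) against 3 and 4 (Spen KO). With 2 libraries against 2, an exact two-sided permutation test cannot give a p below 0.333.

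At the 20 control regions, Oct4 peaks were called at 3 and 13 regions in WT and at 2 and 4 in Spen KO, against 12.8% and 5.38% of CpG-rich starts in WT and 4.98% and 4.63% in Spen KO. The high count of the second WT library was not matched by the first. Plagl1 and Mest had a peak in all 4 libraries. At Plagl1 the fold enrichment was 6.55 and 8.1 (WT) against 6.78 and 4.2 (Spen KO), a difference of -1.83 (exact permutation test, two-sided p = 0.667). The highest peaks at Mest gave 6.16 and 4.7 (WT) against 6.86 and 5.79 (Spen KO). These differed by 0.887 (exact permutation test, two-sided p = 0.667). The highest peak was intronic in both WT libraries and exonic in both Spen KO libraries, so this difference compares different sites. The intronic site had a peak in all 4 libraries, with 6.16 and 4.7 (WT) against 6.23 and 5.01 (Spen KO). The groups overlapped at Plagl1 and at Mest, so neither difference exceeded the spread between libraries.

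**Figure D4:**
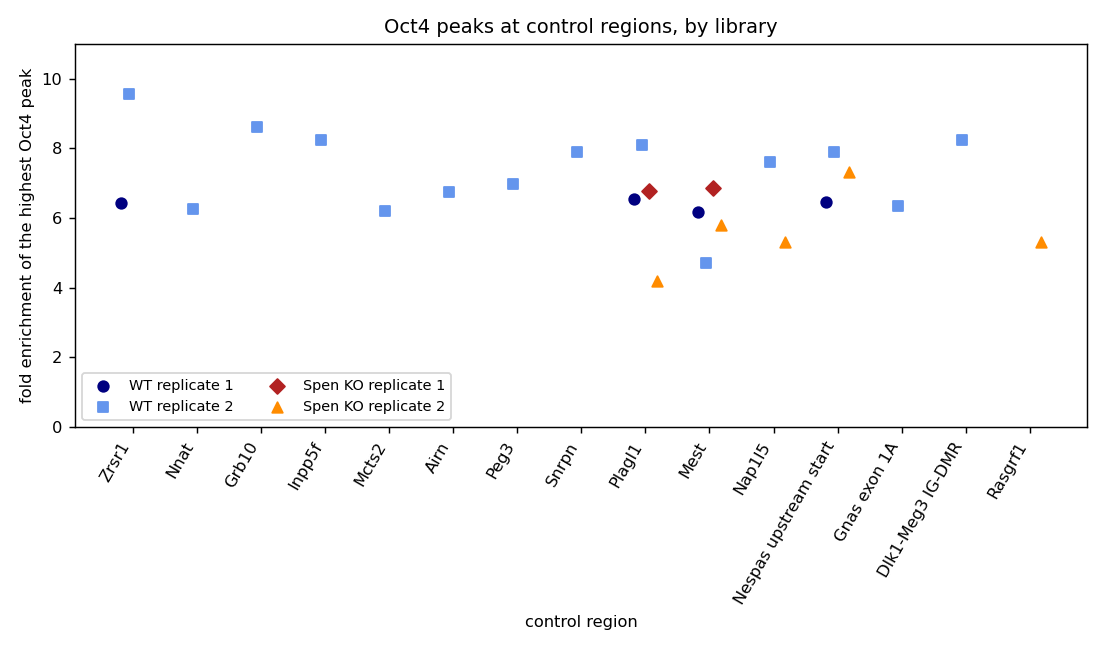
Fold enrichment of the highest Oct4 peak (vertical axis) at each control region with a peak in at least 1 of 4 libraries (horizontal axis), with circles and squares for WT and diamonds and triangles for Spen KO. Zrsr1 has a point in both WT libraries, at 6.43 and 9.57, and none in Spen KO, and Plagl1 and Mest have a point in all 4.

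At the 5 regions without H3K9me3 in Spen KO, Oct4 was found in WT libraries only, as it also was at Airn, Peg3, Snrpn, Gnas exon 1A and the Dlk1-Meg3 IG-DMR. Zrsr1 had a peak in both WT libraries, with a highest fold enrichment of 6.43 in the first and 9.57 in the second, and none in either Spen KO library. Nnat (6.27), Mcts2 (6.2), Grb10 (8.62) and Inpp5f (8.24) had one in the second WT library alone. Absence in Spen KO at these regions was therefore also seen in 1 of the 2 WT libraries, except at Zrsr1. The upstream start of Nespas had Oct4 in both WT libraries (6.45 and 7.88) and in the second Spen KO library (7.33).

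Oct4 peaks in 2 or more libraries were found in the windows of 11 of the 48 members, against 5.54% of all genes, and these included Plagl1, Mest and Zrsr1. An intronic peak of Sgce, the sarcoglycan gene that shares a promoter region with Peg10, was found in both WT libraries (6.35 and 9.01) and in no Spen KO library. Peg3 had 1 peak in each WT library, at neighbouring places that did not overlap (6.16 and 6.97). A Gnas intron carried a peak in the second WT library (5.1) and in both Spen KO libraries (5.57 and 6.66). The Ddc window had a peak beyond the gene in the second WT library (5.7) and the second Spen KO library (6.39), and an intronic peak in both Spen KO libraries (6.21 and 5.08) and in no WT library. Nap1l5, with its host Herc3, had a peak in the second library of each genotype (7.6 in WT and 5.3 in Spen KO). Inpp5f had a peak near its first exon in the first WT library (7.47) besides those at its control region in the second. Commd1 shared the peaks of Zrsr1 and had 1 intronic peak in the second Spen KO library (6.57).

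A separate list of 26 annotated imprinted genes outside the 50 was counted in the same way. H3K9me3 was found at 14 in WT and 13 in Spen KO, against 36.4% and 37% of all genes. It was in WT alone at 3 (Ins2, Th and Gab1), against 4.13% of all genes, and in Spen KO alone at 2 (Osbpl5 and Slc22a3), against 4.76%. H3K4me3 was found at 21 and 20, against 54.6% and 53% of all genes, with Asb4 in WT alone, against 2.4%. H3K27Ac was found at 8 and 6, against 21.4% and 21.2%, with Ppp1r9a and Atp10a in WT alone, against 3.9%. Oct4 was found at 0 and 7 in WT, against 6.25% and 7.15% of all genes. In Spen KO it was found at 2 and 5, against 5.1% and 5.46%.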

How the data were processed

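The 28 samples were grouped by genotype and antibody as labelled. Reads had been aligned to mm9 with Bowtie2, restricted to unique concordant pairs, cleared of duplicates with Picard and called against input with MACS2 at a q-value of 0.01 by the authors. For H3K27Ac and H3K4me3 the deposited lists hold peaks of 2 technical replicates that passed an IDR of 0.05, each with a score per library. For H3K9me3 the deposited lists hold domains of joined 200 bp windows with 1 score. The methods name MACS2 for histone marks, but how these windows were joined and the scale of the score were not given in the sources used here. For Oct4 the authors deposited 1 MACS2 list per library, with a fold enrichment over input (a ratio) and a q-value as −log10.

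Coordinates were made 1-based, and a score was ranked as a percentile within its own list, because scores were not normalized between lists. A gene was called when a peak touched its body or 5 kb on each side. Control regions were placed from annotation and sequence alone: 1000 bp on each side of the start with the most CpG for most maternally methylated regions, the most downstream CpG-rich start for Grb10 and Inpp5f, 4000 to 1500 bp upstream of Gnas, 4500 to 2000 bp upstream of H19, and 16 to 10 kb (Dlk1-Meg3), 40 to 25 kb (Rasgrf1) and 20 to 5 kb (Zdbf2) upstream of the start. This rule placed Nespas at the Nesp promoter and found no Kcnq1ot1, so 2 windows were added after the data had been seen. The Kcnq1ot1 and Zrsr1 promoters were placed by matching their RefSeq sequence (GRCm38 table) to mm9. Peg13 was not analysed here.

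The lists allow no test between genotypes for histone marks, and for Oct4 the exact permutation test over 2 against 2 libraries was used. All genes, protein-coding genes and starts were counted by the same code as background, which was tested on simulated intervals. The members, lists and control regions were chosen with earlier results of these data known. The text gives values for every control region, for every member with a histone mark in 1 genotype alone, for up to 5 members with the highest WT score per mark and for members with Oct4 in 2 or more libraries. Members shown for a change in covered bases were chosen after their values were seen. The study's own comparison by DESeq2 used read counts, which were not used here. Python 3.11.15, pandas 2.3.3, numpy 2.4.6, scipy 1.17.1 and matplotlib 3.10.9 were used.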

Additional observations from a re-analysis of the deposited data

How the results depend on the processing

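Over 23 results, 16 of 131 alternatives moved a count of genes by over 1.5 times. At the control regions the counts for H3K9me3, H3K4me3 and their exchange moved by less than that under each alternative run: 2500 bp on each side, at least 200 bp covered, the stronger 50% of every list, lists of equal length, or the 2 added windows. The counts of H3K27Ac and Oct4 at control regions were not recomputed. With the gene body alone, H3K27Ac in Spen KO alone was at 1 member and H3K4me3 in Spen KO alone at 2. With at least 50% of a peak inside the window, H3K4me3 in Spen KO alone was at 1. With the stronger 50% of every list, H3K27Ac in WT alone was at 2, H3K4me3 in WT alone at 4 and in Spen KO alone at 1, and H3K9me3 in Spen KO alone at 1. With lists of equal length, H3K27Ac in WT alone was at 2 and H3K4me3 in Spen KO alone at 1. With overlapping windows merged into 37, H3K27Ac in Spen KO alone was at 1 and H3K9me3 in WT alone at 3. Within 1000 bp of starts, H3K27Ac was called at 8 members in WT and was in WT alone at 2, H3K4me3 was in WT alone at 1 and in Spen KO alone at 2, and H3K9me3 was called at 14 in Spen KO. The cause of these moves was not tested.

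The Oct4 difference in members with a peak, -8.5 in Spen KO minus WT, ranged from -14.5 to -2.5 when 1 library was left out, without the first and the second WT library respectively, and was -4.5 with the stronger 50% of every list. These moves exceed 1.5 times but were not classed as moved, because Oct4 was judged by the SD pooled over both genotypes. The SD was 8.49 in WT and 3.54 in Spen KO. Replicate numbers were shared between genotypes, but deviations of equal numbers correlated at 0.0438 over 5554 genes, so the numbers were not taken as pairs, and the difference with the replicate number as a block was also -8.5. Leaving out a library was not possible for the histone marks, whose lists join both libraries. Depth is unknown, and H3K9me3 scores have no stated scale, so the lists limit statements to presence, extent and rank.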
